A study of Mus musculus with 4 samples.

Results

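Wild-type LSK cells that had repopulated irradiated hosts were compared with wild-type LSK cells taken straight from young adult mice. The comparison rests on 2 of the 4 arrays of the series, 1 array on each side, chosen by their labels as the transplanted and the native wild-type sample. LSK cells are the lineage-negative, c-Kit-positive, Sca-1-positive fraction of mouse bone marrow, which holds the hematopoietic stem cells and multipotent progenitors. The transplanted cells were CD45.2+ donor cells of C57BL/6 background, sorted 9 months after whole wild-type marrow had been given to lethally irradiated CD45.1+ recipients, and the labels count 5 recipients. The native cells came from wild-type C57BL/6 mice aged 20 weeks that had received no transplant, and the labels count 4 mice. The same pair of settings with marrow carrying 1 functional copy of the splicing factor gene Sf3b1 (Sf3b1+/-) gave the other 2 arrays, transplanted and native, and serves below as another look at each gene. The sources used here do not say how many mice contributed RNA to each array. Age, irradiation of the host, the transplant itself and the donor-cell gate all differ between the 2 wild-type samples and cannot be told apart. The labels put the transplant in the design to separate effects inside the cells from those of the marrow around them.

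In serial or single transplants, stem cells must divide many times to refill an emptied marrow before they return to rest. The LSK gate is a mixture: the long-lived stem cells, progenitors primed toward lymphocytes, which carry Flt3, and progenitors primed toward granulocytes, monocytes, platelets or red cells. With age the stem cells of mice become more numerous and a set of surface and platelet-type genes rises in them, while lymphoid-primed cells decline. RNA from a sorted pool cannot tell fewer cells of a type from less RNA per cell, and this holds for every value below.

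Of 20887 named genes on the array, 12347 were well above background on both wild-type arrays and were compared. Values are log2 signals relative to the 75th percentile of each array, so that 0 is a fairly bright gene, and a difference of 1 is 2-fold. Differences are transplanted minus native. Over the compared genes the median difference was -0.01 and the standard deviation (SD) 0.42. Replicate spots on the arrays put an SD of 0.16 on a single difference, and probes of the same gene disagreed with an SD of 0.27 over 3113 genes with more than 1 compared probe. Both are technical, and with 1 array per group there is no biological replicate and no test. The transplanted array had 50.2% of spots well above background, against 47.7% on the native array. The 4 arrays shared 1 slide, read at 1 scan time.

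Transplanted cells had 192 genes that were higher by 2-fold or more, 1.56% of those compared, and 130 that were lower by as much, or 1.05%. At 1.5-fold, the size used for the gene lists below, 737 genes (5.97%) were higher and 614 (4.97%) were lower. Dim genes made up most of the larger differences: 200 of the 2-fold genes were among the 4116 genes of lowest mean signal, 88 among the 4115 in the middle and 34 among the 4116 brightest. The split between directions depends on the scaling, with 163 genes higher and 152 lower when the 75th percentile was taken over all probes, and 904 higher and 35 lower when the arrays were scaled to the spike-in transcripts. Spike-in scaling moved the median of all compared genes to 0.46, so every value here is a difference relative to the bulk of genes on the same array. Sizes depend on the background correction: of 163 genes selected by the naming rules and at least 1.5-fold apart, 153 had smaller differences with normexp correction, at a median of 81.4% of the log2 size, 40 had a fold that changed by over 1.5 times and 38 came under 1.5-fold. Where a fold printed below changed by over 1.5 times, the normexp fold stands beside it. Values printed as signals or log2 differences mostly carry no such mark, though some shrank as much. Klrd1 went from 2.10 to 1.36, and Ifit1, Mecom and Phlda2 came under 1.5-fold with normexp.

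**Figure D1:**
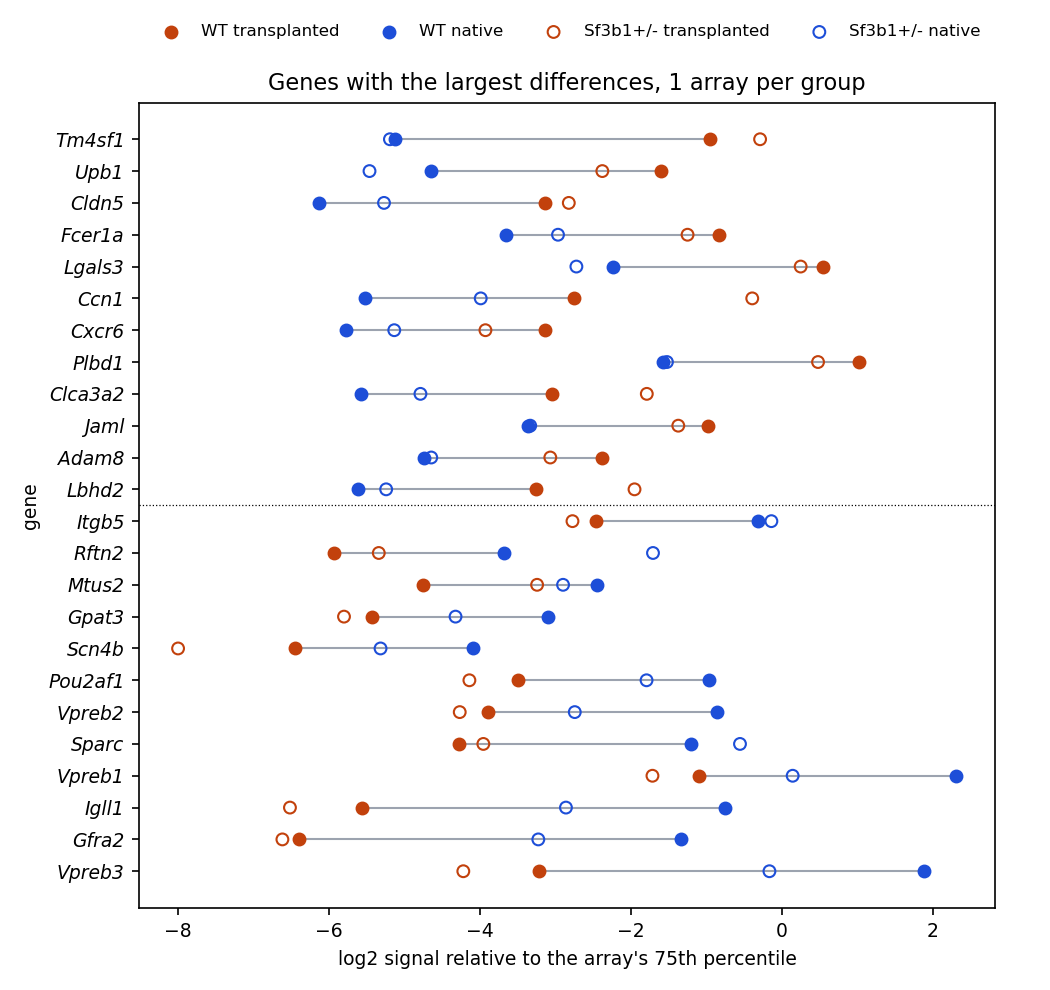
Log2 signal relative to the array's 75th percentile (x axis) for the 12 genes highest and the 12 genes lowest in wild-type transplanted against wild-type native cells, 1 array per group. Filled points are wild type and open points Sf3b1+/-, with transplanted cells in orange and native cells in blue; Tm4sf1 lies 4.16 higher in wild-type transplanted cells, and Vpreb3 has a difference of -5.11.

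Genes of early B-cell development were among the lowest of all in transplanted cells. Igll1 pairs with Vpreb1 or Vpreb2 to form the surrogate light chain that a pro-B cell uses to test its first heavy chain. Vpreb1 had a log2 signal of -1.10 in wild-type transplanted cells, against 2.31 in wild-type native cells, a 10.6-fold lower level. Igll1 stood at -5.55 in transplanted and -0.76 in native cells, 27.8-fold lower (11.1-fold with normexp), and Vpreb2 at -3.89 and -0.86, 8.17-fold lower. The probes of Vpreb1 and Vpreb2, which are almost the same gene, may each pick up both transcripts. Vpreb3, an endoplasmic reticulum protein of B-lineage cells, stood at -3.22 in transplanted cells and 1.89 in native cells, 34.4-fold lower. Pou2af1, a B-cell coactivator of octamer-binding factors, was 5.74-fold lower, at -3.49 against -0.97. Sf3b1+/- cells gave the same direction in every one of these genes: transplanted against native, Vpreb3 was at -4.22 and -0.16, Igll1 at -6.51 and -2.86, Vpreb1 at -1.71 and 0.14, Vpreb2 at -4.27 and -2.74, and Pou2af1 at -4.14 and -1.79.

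The promoters of 3 of these genes are shown because these genes were among the lowest of the comparison. The sequences are those of RefSeq on GRCm38.p6, 170 bases before to 30 after the annotated start, on the strand of the gene, with the E-box CAGGTG or its reverse complement in capitals; E-boxes of this kind bind E2A, a regulator of B-lineage genes.
Vpreb1, chr16:16869226-16869425, minus strand: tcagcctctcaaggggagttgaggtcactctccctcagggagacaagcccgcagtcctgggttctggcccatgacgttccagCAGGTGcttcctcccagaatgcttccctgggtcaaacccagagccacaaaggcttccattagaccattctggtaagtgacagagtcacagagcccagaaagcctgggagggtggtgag
Igll1, chr16:16863956-16864155, minus strand: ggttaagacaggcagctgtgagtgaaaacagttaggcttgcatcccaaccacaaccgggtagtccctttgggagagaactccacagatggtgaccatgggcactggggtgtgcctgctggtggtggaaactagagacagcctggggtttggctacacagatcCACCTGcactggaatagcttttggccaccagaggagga
Vpreb3, chr10:75948130-75948329, plus strand: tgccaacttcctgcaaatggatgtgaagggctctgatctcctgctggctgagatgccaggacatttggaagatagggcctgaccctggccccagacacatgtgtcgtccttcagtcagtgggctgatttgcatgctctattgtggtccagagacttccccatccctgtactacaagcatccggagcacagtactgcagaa
The motif lies in the windows of Vpreb1 and Igll1 and not in that of Vpreb3. Over the full 300-base table windows, searched on both strands, CAGGTG was in 7 of the 9 compared B-lineage genes with a promoter, and in 17.7% of the 9920 compared genes with one. An EBF-type motif, CCCNNGGG, also searched, was in 2 of the 9 B-lineage promoters against 17.5% of the compared genes. These motifs were picked with the lists in hand, and a match is a description of the letters.

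Of the 19 B-cell and plasma-cell genes on the array, 11 were compared. Of the 11, 8 were at least 1.5-fold lower and none was 1.5-fold higher, with a median of -1.20, against -0.01 for all compared genes. With genes admitted by any 2 of the 4 arrays the median was -2.01. That filter also admits genes that only the native arrays detected, such as Ebf1, so the lower value is no further support. Cr2, a complement receptor of mature B cells, was the member above 0, at 0.20. Mzb1, a secretory-pathway chaperone of B cells, was 2.31-fold lower, and Jchain, which links immunoglobulin multimers, 1.75-fold lower. Cd79b was at 1.00 in transplanted and 1.43 in native cells, and Cd22 at -2.48 and -2.28, both inside 1.5-fold. Ebf1 and Cd79a were well above background on the native array and not on the transplanted one. Against the dimmest signal the transplanted array could resolve, or the gene's own reading if that was brighter, Ebf1, the factor that specifies the lineage, was at least 9.15-fold lower. This bound and those below were set with the main background correction alone, and normexp made most sizes of the named compared genes smaller. Pax5, Ms4a1, Blk, Bank1 and Fcmr were well above background on neither wild-type array. In Sf3b1+/- cells 8 of the 11 genes were also at least 1.5-fold lower, with a median of -1.52.

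Lymphoid-primed progenitor genes divided. All 17 on the array were compared; 4 were lower and 3 higher by at least 1.5-fold, and the median was -0.13. Rag1, a subunit of the enzyme that cuts immunoglobulin and T-cell receptor genes, was at -5.75 in transplanted and -3.73 in native cells, 4.07-fold lower (2.23-fold with normexp), and its neighbour and partner Rag2 1.52-fold lower. Blnk, an adaptor of the pre-B-cell receptor, was 2.53-fold lower. Flt3, the receptor that marks lymphoid-primed cells in this gate, was lower by 0.61. Dntt, the polymerase that adds bases at recombination joints, stood at 4.74 and 4.87. Ly6d, a marker of B-biased lymphoid progenitors, went the other way, at 1.29 in transplanted and -0.09 in native cells, as did Il7r at -2.50 and -3.12 and the homing receptor Ccr7 at -1.98 and -2.69. In Sf3b1+/- cells 8 of the 17 were at least 1.5-fold lower and none higher, Dntt among the lower ones at -1.08, and 16 of the 17 differences lay below those of wild type; that gap between genotypes was not tested.

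The 5 genes listed as gate and donor markers had a median of -0.43, with 2 above 0 and 3 below. Sca-1 (Ly6a) was at 0.26 in transplanted and 0.07 in native cells, and the leukocyte antigen CD45 (Ptprc) at -1.36 and -1.54. Kit, the stem cell factor receptor, was at 1.33 in transplanted and 1.75 in native cells, and Cd34, which is absent from the most primitive mouse stem cells, at 4.58 and 5.12. Flt3 was the only 1 of the 5 gate and donor markers at least 1.5-fold apart with the main background correction. With normexp Cd34 was too, 1.60-fold lower. Among lineage antigens that the sort removes, Cd3e, Cd3d, Itgam and Cd4 lay within 0.10 of 0, Cd8a was not well above background on either array, and the natural killer antigens Klrb1c and Il2rb were higher by 1.77 and 1.23.

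Genes known to be higher in the stem cells of old mice were higher in transplanted cells. Of 35 on the array 26 were compared, 14 were at least 1.5-fold higher and none lower, and the median was 0.60. Tm4sf1, a tetraspanin-like membrane protein, was the highest of all compared genes, at -0.95 in transplanted and -5.12 in native cells, 17.9-fold (7.22-fold with normexp). Nupr1, a stress-induced chromatin protein, was at 0.63 in transplanted and -1.38 in native cells, Sult1a1, a sulfotransferase, at -0.99 and -2.91, and Gstm2, a glutathione transferase, at -1.14 and -2.87. Selp, the adhesion receptor P-selectin, was 3.04-fold higher, Clu, a secreted chaperone, higher by 1.20 on the log2 scale, and Aldh1a1, a retinaldehyde dehydrogenase, by 1.11. Vwf, the von Willebrand factor of platelets and platelet-biased stem cells, was at 0.45 in transplanted and -0.15 in native cells. Jun, with a difference of -0.32, and Alcam, with -0.08, were the members below 0. In Sf3b1+/- cells 22 of the 26 were at least 1.5-fold higher, the median was 1.76, and all 26 differences lay above those of wild type; the difference between genotypes was not tested. Ramp2, a receptor-modifying protein, had the widest gap, 0.59 in wild type and 4.14 in Sf3b1+/-.

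Genes of the hematopoietic stem cell state did not follow that list. Of 33 compared, 2 were at least 1.5-fold higher, 5 at least 1.5-fold lower and 26 in between, with a median of -0.17. Slamf1, the CD150 antigen used to sort long-term stem cells and also in the list of old-stem-cell genes, was at -3.27 in transplanted and -4.58 in native cells, 2.49-fold higher. Hoxb5, a homeobox factor restricted to long-term stem cells, was 1.55-fold higher, and under 1.5-fold with normexp. Prdm16 and Mecom, related zinc finger regulators of stem cell maintenance, were lower by 1.11 and 0.88, at -4.11 and -4.96 in transplanted cells against -3.00 and -4.08 in native cells. Hlf, a stem cell transcription factor, stood at 0.64 in transplanted and 1.39 in native cells. Procr, the endothelial protein C receptor of stem cells, was at 0.30 and 0.10. Sf3b1+/- cells had 13 of the 33 at least 1.5-fold higher, 3 lower and a median of 0.29, with Procr at 1.28 in the difference.

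**Figure D2:**
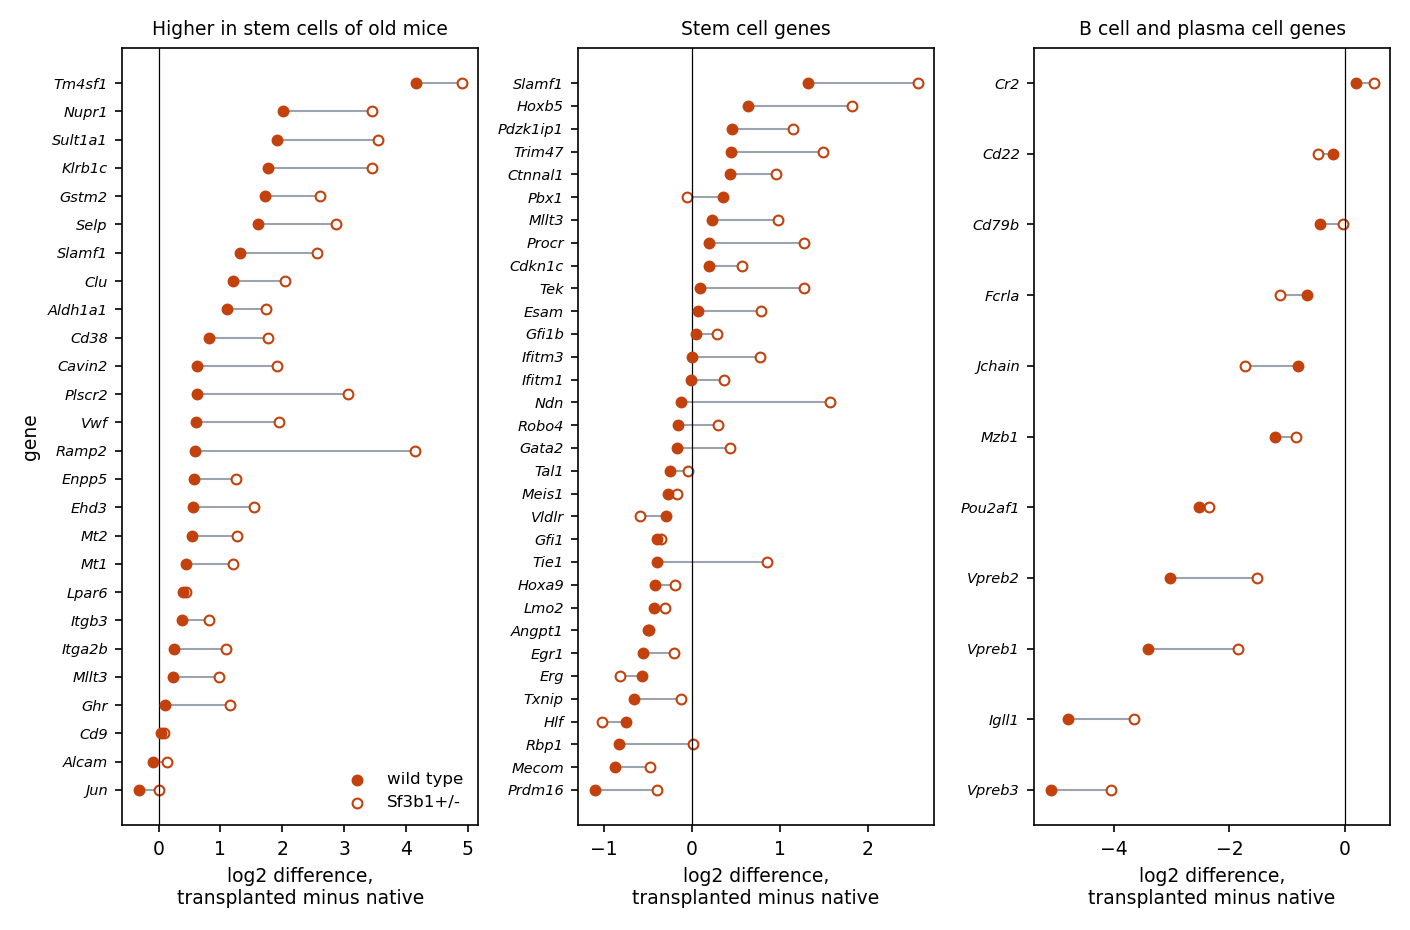
Log2 difference, transplanted minus native (x axis), for reported genes of 3 lists that were well above background on all 4 arrays, with wild type filled and Sf3b1+/- open, 1 array per group. In the list from old stem cells all 26 open points lie to the right of the filled ones, and in the B-cell list Vpreb3 is lowest in both.

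Genes of monocytes and dendritic cells were among those higher in transplanted cells. Of 26 on the array 15 were compared; 8 were higher and 2 lower by at least 1.5-fold, with a median of 0.82. The median was 0.13 when members not well above background were included. Batf3 and Irf8, transcription factors of cross-presenting dendritic cells, were at -3.21 and 2.96 in transplanted cells, against -5.14 and 1.80 in native cells. Ccr2, the chemokine receptor of monocytes, was at -2.23 in transplanted and -3.70 in native cells, Itgax (CD11c) at -1.80 and -3.25, Cx3cr1 at -0.58 and -1.74 and F13a1 at 1.91 and 0.78. Clec9a, a receptor of the dendritic cells that Batf3 specifies, was well above background on the transplanted array alone and at least 10.8-fold higher. It was the only such member, while 2 members of the list went the other way, well above background on the native array alone. Vcam1 and Axl, which macrophages express, had differences of -1.50 and -1.47, and of -0.79 and -0.63 with normexp. The macrophage-defining genes C1qa, C1qc, Mertk, Mrc1 and Cd163 were not well above background on either wild-type array, and Adgre1 (F4/80) stood at -5.69 and -5.87. Their part in the result was not tested. Lgals3 and Aif1, both abundant in monocytes and macrophages, were 6.86-fold and 5.12-fold higher, and Plbd1, a phospholipase of myeloid granules, 6.04-fold higher at 1.02 in transplanted and -1.58 in native cells.

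MHC class II molecules present peptides to helper T cells, and their genes lie together on chromosome 17. Of 8 compared, 4 were at least 1.5-fold higher and none lower, with a median of 0.65. H2-Eb1 was at 3.34 in transplanted and 1.40 in native cells, 3.84-fold higher, H2-Aa at -0.35 and -2.09, 3.33-fold higher, and H2-Ab1 at 4.13 and 3.15, 1.97-fold higher. Cd74, the invariant chain that escorts them, was 2.11-fold higher. The peptide loaders H2-DMa and H2-DMb1 lay at 0.04 and 0.32 in the difference, the H2-O chains H2-Oa and H2-Ob, which inhibit the loaders and are typical of B cells, at -0.24 and -0.43, and Ciita, the class II transactivator, was not well above background on either array. Sf3b1+/- cells showed H2-Eb1 at 3.10 in transplanted and 1.28 in native cells and H2-Aa at -0.13 and -2.13. MHC class I and antigen-processing genes stayed closer together: of 22 compared none was 1.5-fold apart in either direction, with a median of 0.11.
The 2 class II promoters with the larger values are shown, RefSeq GRCm38.p6, 170 bases before to 30 after the annotated start, with CCAAT or its reverse complement, the letters of the Y box bound by NF-Y, in capitals.
H2-Eb1, chr17:34305697-34305896, plus strand: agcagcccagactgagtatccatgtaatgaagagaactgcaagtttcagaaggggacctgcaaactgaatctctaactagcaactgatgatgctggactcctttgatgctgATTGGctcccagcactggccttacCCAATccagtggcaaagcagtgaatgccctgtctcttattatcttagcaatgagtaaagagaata
H2-Aa, chr17:34287794-34287993, minus strand: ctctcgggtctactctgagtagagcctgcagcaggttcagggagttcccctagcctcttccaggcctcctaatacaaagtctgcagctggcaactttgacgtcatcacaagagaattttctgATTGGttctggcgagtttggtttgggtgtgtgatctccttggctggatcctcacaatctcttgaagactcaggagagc
CCAAT was in 5 of the 6 compared class II genes with a promoter, against 38.9% of the compared genes.

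Many granulocyte genes, of early and of late maturation, were higher in transplanted cells. All 12 genes of the primary granule list were compared. Of these, 6 were at least 1.5-fold higher and none lower, 2 lay below 0, and the median was 0.46. The largest differences were those of Hp at 0.85, Igsf6 at 0.84, Ms4a3 at 0.82 and Plac8 at 0.77, none of them a primary granule enzyme. Mpo, myeloperoxidase, was at 6.26 in transplanted and 6.43 in native cells and Elane, neutrophil elastase, at 1.74 and 1.69, while Ctsg, cathepsin G, was at 5.34 and 4.64 and Prtn3, proteinase 3, at 2.10 and 1.45. Among late neutrophil genes 8 of 17 compared were at least 1.5-fold higher and none lower, with a median of 0.52, which was 0.27 with normexp and 0.32 with no filter on dim genes. Camp, the cathelicidin of secondary granules, was 2.54-fold higher at 0.02 in transplanted and -1.33 in native cells, Chil3 higher by 1.20 and S100a9, a subunit of calprotectin, by 1.04. Mmp9, Fcnb and Cd177 were not well above background on either array. In Sf3b1+/- cells 3 of the 17 late genes were at least 1.5-fold higher and 1 lower, with a median of -0.11. Il1b, the inflammatory cytokine interleukin 1 beta, was higher by 1.12 in wild type and by 1.48 in Sf3b1+/-, while Camp in Sf3b1+/- stood at -1.25 in transplanted and -1.15 in native cells; the difference between genotypes was not tested. Regulators of myeloid fate that were higher included Cebpd by 1.03, Id2 by 1.35 and Id1 by 0.99, whereas Cebpa, Spi1 and Gfi1 had differences of 0.07, 0.32 and -0.39.

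Genes of T and natural killer cells had 8 of 25 compared members at least 1.5-fold higher and none lower, with a median of 0.33. The higher members were natural killer and cytotoxic genes or genes shared with early T-cell precursors. Klrd1 (CD94) was at -2.88 in transplanted and -4.98 in native cells, Gzma at -2.83 and -4.68, Gzmb at -2.99 and -4.49, and Cd7 at -1.34 and -2.94. Cxcr6, a homing receptor of innate lymphocytes, was 6.19-fold higher (2.46-fold with normexp). The T-cell receptor complex genes Cd3g, Cd3e and Cd3d lay at -0.17, -0.06 and -0.05 in the difference, Lck at 0.08, and Bcl11b and Trat1 were not well above background on either array. The natural killer genes Ncr1 and Tbx21 were well above background on the transplanted array alone, with bounds of at least 1.38-fold and at least 3.41-fold. Outside this list, the natural killer receptor genes Klra4, Klra8 and Klra7 went the other way, lower by 0.84 to 1.54. The part of natural killer cells in the sorted pool was not tested.

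Genes of mast cells, basophils and eosinophils, read as 1 list, had no common direction. Of 21 compared, 4 were higher and 6 lower by at least 1.5-fold, with a median of -0.03. Fcer1a, the IgE-binding chain of the high-affinity receptor, was at -0.83 in transplanted and -3.65 in native cells, 7.07-fold higher, and Mcpt8, a basophil protease, at 0.21 and -1.48, 3.24-fold higher. Prss34, another basophil protease, was well above background on the transplanted array alone, at -1.36, and at least 28.8-fold higher. Cpa3 and Gata2, shared by mast cell and basophil precursors, had differences of 0.05 and -0.17. Members with lower values included the eosinophil-associated ribonucleases Ear2 at -3.41 in transplanted and -1.85 in native cells, Ear1 at -5.34 and -3.80, and Ear10 at -5.30 and -4.08, with the eosinophil peroxidase Epx lower by 0.86. Ear1, Ear2 and Ear10 are near-identical neighbours whose probes may read each other. In Sf3b1+/- cells Fcer1a was higher by 1.72 and Mcpt8 by 1.46, and Ear2 was lower by 1.31.

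Platelet and red-cell genes showed no common direction. Of 26 megakaryocyte and platelet genes compared, 4 were at least 1.5-fold higher and 1 lower, with a median of 0.00. The higher ones were Selp, Thbs1, Cavin2 and Vwf, of which Selp, Cavin2 and Vwf are also in the list from old stem cells. Pf4, platelet factor 4, stood at 3.69 in transplanted and 3.38 in native cells, Gp9 at -0.10 and -0.07, and Ppbp at -4.49 and -3.17. Of 21 erythroid genes compared, 3 were at least 1.5-fold higher and 1 lower, with a median of 0.16. Gata1, the master factor of the lineage, was at -0.19 in transplanted and 0.00 in native cells, Klf1 at -4.98 and -4.93, and Tfrc, the transferrin receptor, at -1.24 and -2.16. Alas2, Rhag and Epb42 were not well above background on either array.

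**Figure D3:**
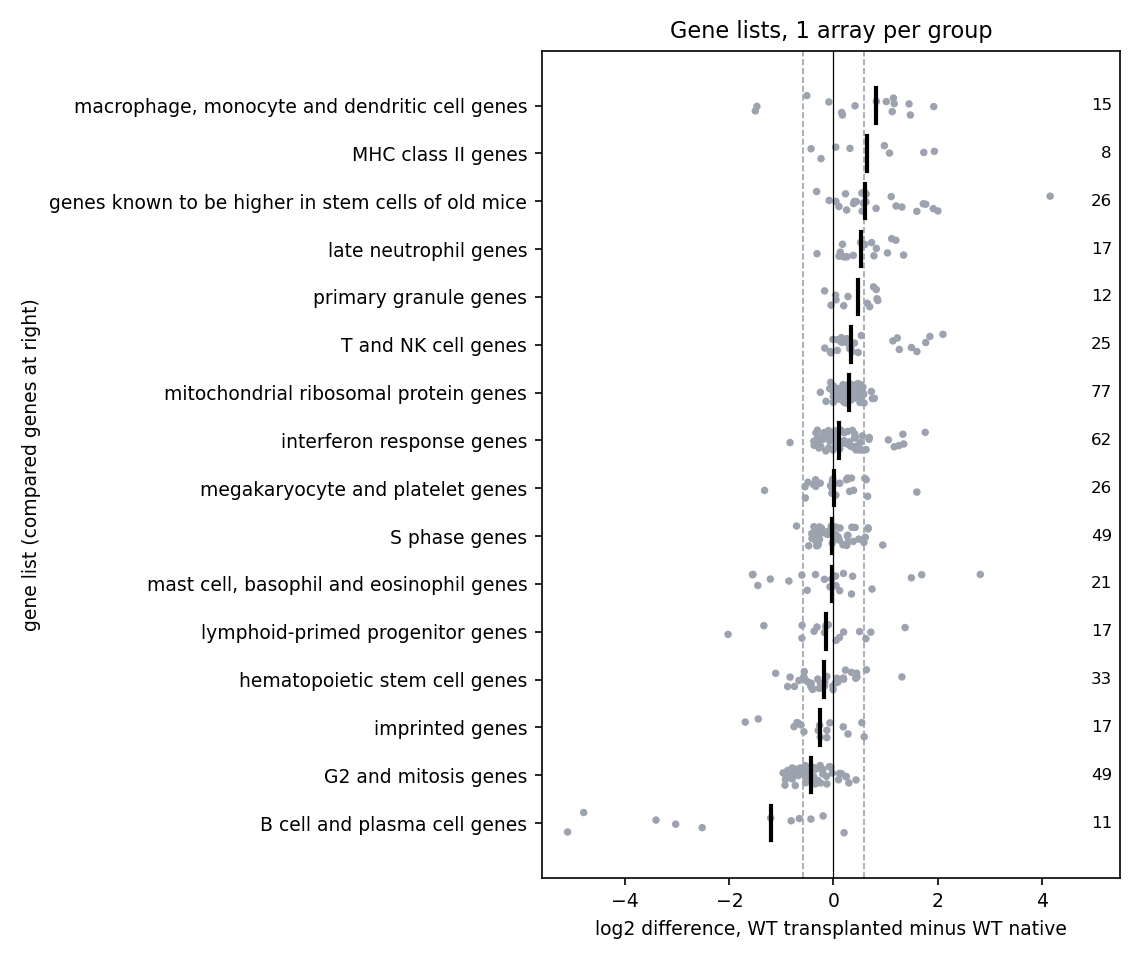
Log2 difference, wild-type transplanted minus wild-type native (x axis), for each compared gene of 16 lists, 1 array per group; the black bar is the list median, the dashed lines mark 1.5-fold and the number of compared genes is at the right. Medians run from 0.82 for monocyte, macrophage and dendritic cell genes to -1.20 for B-cell genes; with no filter on dim genes the value of 0.82 becomes 0.13.

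Genes of G2 and mitosis were lower together. Of 50 on the array 49 were compared: 14 were at least 1.5-fold lower, none was 1.5-fold higher, 42 lay below 0, and the median was -0.43. Cenpe, a kinetochore motor, stood at 0.56 in transplanted and 1.49 in native cells. Plk1, the mitotic kinase, was at 0.54 and 1.45, Prc1, which bundles the spindle midzone, at 0.84 and 1.66, and Mki67, the Ki-67 antigen, at 2.32 and 3.11. Cdc20, the activator of the anaphase-promoting complex, was at 1.72 in transplanted and 2.42 in native cells, 1.63-fold lower. Cdk1 lay at -0.02 in the difference, Cenpa at 0.12 and Mad2l1 at 0.30. Of the 49 S phase genes compared, 1 was at least 1.5-fold lower and 5 at least 1.5-fold higher, with a median of -0.03: Pola1, a DNA polymerase subunit, was lower by 0.71, and Cdc45 and Gins2, of the replicative helicase, were higher by 0.95 and 0.67. Sf3b1+/- cells gave medians of -0.42 for G2 and mitosis and -0.02 for S phase. On the spike-in scale, where all genes lie higher by the shift given above, the G2 and mitosis median was 0.04 and the S phase median 0.44. The G2 and mitosis median is thus lower only relative to the other genes, while members lower by more than that shift, such as Cenpe and Plk1, stay below 0. The cyclin-dependent kinase inhibitors Cdkn1a, Cdkn1b and Cdkn1c, brakes on the cycle, had differences of 0.09, 0.16 and 0.19. Cdkn2a and Cdkn2b were well above background on the transplanted array alone, but dim there, at -5.33 and -6.06. Their bounds were at least 2.07-fold and at least 1.25-fold higher.

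Promoters of 3 mitotic genes are shown, RefSeq GRCm38.p6, 170 bases before to 30 after the annotated start, with CCAAT boxes and the CHR element TTTGAA, or their reverse complements, in capitals; both elements are known in promoters that are shut in G1 and open in G2.
Prc1, chr7:80294281-80294480, plus strand: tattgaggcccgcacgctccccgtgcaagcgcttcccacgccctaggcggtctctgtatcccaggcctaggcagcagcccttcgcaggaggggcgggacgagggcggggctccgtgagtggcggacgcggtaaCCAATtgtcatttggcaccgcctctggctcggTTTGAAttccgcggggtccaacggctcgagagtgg
Cdc20, chr4:118437314-118437513, minus strand: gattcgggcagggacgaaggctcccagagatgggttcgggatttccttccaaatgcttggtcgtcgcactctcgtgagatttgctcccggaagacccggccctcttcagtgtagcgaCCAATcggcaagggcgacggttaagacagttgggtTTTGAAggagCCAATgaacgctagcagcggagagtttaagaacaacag
Plk1, chr7:122159265-122159464, plus strand: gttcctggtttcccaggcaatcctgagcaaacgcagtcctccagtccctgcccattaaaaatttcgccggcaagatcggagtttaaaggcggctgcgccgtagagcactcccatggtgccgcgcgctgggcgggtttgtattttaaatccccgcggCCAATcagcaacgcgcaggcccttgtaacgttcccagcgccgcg
Prc1 and Cdc20 hold both elements in this window and Plk1 holds CCAAT alone. Over the 300-base windows, TTTGAA was in 28 of the 39 compared G2 and mitosis genes with a promoter and in 4 of 41 S phase genes, against 12.3% of all compared genes, and CCAAT was in 30 of the 39 and in 24 of the 41. TTTGAA was in 8 of the 11 G2 and mitosis genes with a promoter that were at least 1.5-fold lower, so the share among them was close to that of the whole list.

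**Figure D4:**
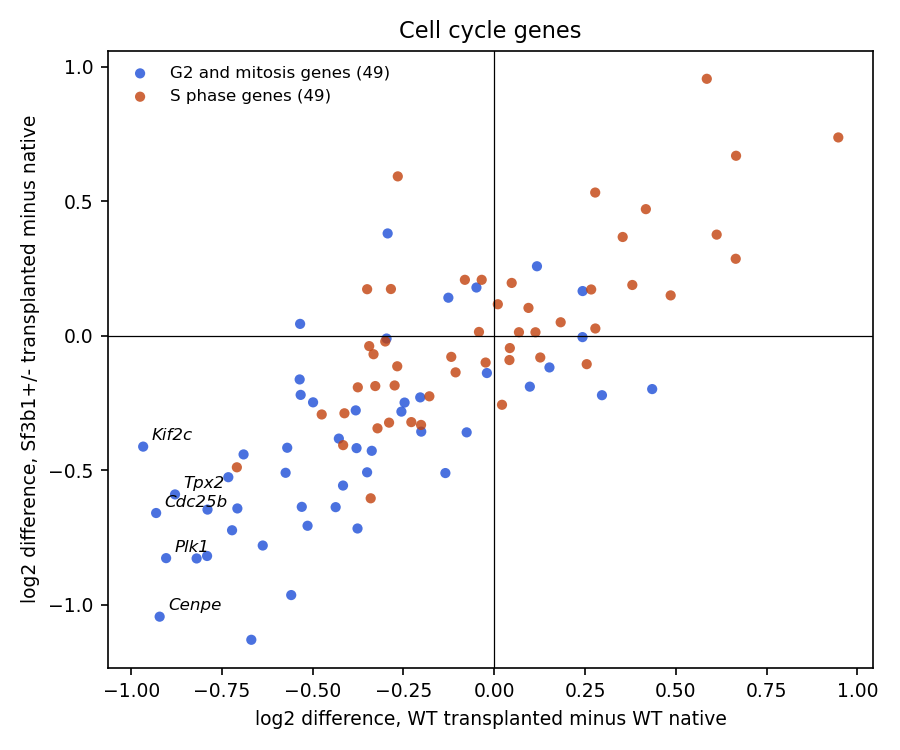
Log2 difference, transplanted minus native, in wild type (x axis) and in Sf3b1+/- (y axis) for 49 G2 and mitosis genes (blue) and 49 S phase genes (orange), 1 array per group. Most blue points lie below 0 on both axes, with medians of -0.43 and -0.42, and the orange points spread around 0.

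Stress, inflammatory and interferon genes gave scattered differences. Of 23 heat shock and chaperone genes, 5 were at least 1.5-fold higher and 1 lower, with a median of 0.17; Hsph1 was at 2.57 in transplanted and 1.27 in native cells, Hspa1a at 3.06 and 2.13, and Bag3 at 0.67 and -0.27. Serpinh1, the collagen chaperone, was the lower one, by 1.49. Of 47 immediate early genes, which respond within minutes to cell handling as well as to growth signals, 8 were at least 1.5-fold lower and 3 higher, with a median of -0.20: Dusp1, Zfp36, Ier3 and Nfkbia were lower by 0.64, 0.64, 0.62 and 0.70, and Nr4a2 and Ccn1 were higher by 1.37 and 2.78. How cell handling moved with the groups was not tested. Interferon response genes had 9 of 62 compared members at least 1.5-fold higher and 1 lower, with a median of 0.11. Phf11d was at -0.06 in transplanted and -1.82 in native cells, Ifi27l2a at 2.13 and 0.79, Ifit1 at -4.57 and -5.83, and Cxcl10 at 0.17 and 1.00. An interferon-response motif, TTTCNNTTT, was in 31 of the 50 compared interferon genes with a promoter, against 8.10% of compared genes. Unfolded-protein and stress genes had 5 of 37 at least 1.5-fold higher, Xbp1 among them by 0.64, and none lower.

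Housekeeping machinery shifted by small amounts. Mitochondrial ribosomal protein genes had a median of 0.30 over 77 compared, with 4 at least 1.5-fold higher, none lower and 7 below 0. For the respiratory chain the median was 0.28 over 80 genes (0.17 with normexp), with 3 at least 1.5-fold higher and none lower, and proteasome subunits a median of 0.19 over 37. Cytosolic ribosomal protein genes were at 0.12 over 85. Sterol and fatty acid synthesis genes were at -0.19 over 34, with Hmgcs1, an early enzyme of cholesterol synthesis, lower by 0.75. Enzymes of DNA methylation had a median of -0.26 over 15 with none 1.5-fold apart; Dnmt3a, which methylates new sites and is often mutated in human blood disease, stood at -1.79 in transplanted and -1.25 in native cells, Dnmt1 at -0.97 and -0.42 and Tet2 at -1.36 and -1.48. Polycomb genes had a median of -0.21 over 30, with none 1.5-fold apart, and Asxl1 was at 0.51 and 0.99. Single differences of this size are close to the SD of 0.27 between probes of one gene.

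Imprinted genes, expressed from 1 parental copy and in part linked to stem cell rest, had 6 of 17 compared members at least 1.5-fold lower and 1 higher, with a median of -0.26, or -0.13 by the median over a gene's probes. Igf2r, which clears the growth factor Igf2, was at -4.47 in transplanted and -2.78 in native cells, 3.24-fold lower, with -4.32 and -2.69 in Sf3b1+/- cells. Dlk1 was lower by 1.44 and Phlda2 by 0.76. H19 was not analysed here, and Igf2, Peg3 and Mest were not well above background on either array.

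Matrix and stromal genes held some of the largest differences. The matrix list had no common direction, with 6 of 27 compared genes at least 1.5-fold higher and 6 lower, while the larger stromal differences were mostly lower. Sparc, a collagen-binding matrix protein, was at -4.28 in transplanted and -1.21 in native cells, 8.40-fold lower (5.41-fold with normexp), and Col1a2 was lower by 1.63. Col1a1, the other chain of type I collagen, and Bglap2, an osteocalcin of bone-forming cells, were well above background on the native array alone, at least 6.38-fold and 3.45-fold lower in transplanted cells. Of 18 stromal and bone cell genes compared, 5 were at least 1.5-fold lower and 1 higher, with a median of 0.02. A further 3 were well above background on the native array alone, and none on the transplanted array alone. The stromal genes Cxcl12, Kitl, Pdgfra, Dcn, Lum, Sp7 and Postn were not well above background on either wild-type array, and the summed signal of the list was 16.8 in transplanted and 18.5 in native cells, in units of the array's 75th percentile. The part of stromal cells in the result was not tested. On the other side, Cldn5, a tight junction protein, was 7.96-fold higher (3.11-fold with normexp), Jam2, a junction adhesion molecule, 4.91-fold (2.89-fold), Ccn1, a matrix-associated growth regulator, 6.85-fold (2.99-fold) and Adamts1, a matrix protease, higher by 1.68. Among endothelial genes 3 of 18 compared were at least 1.5-fold higher and 1 lower, with a median of -0.01, and Cdh5, Flt1, Flt4, Stab1 and Stab2 were not well above background on either array. Itgb5, an integrin chain that binds vitronectin, was at -2.47 in transplanted and -0.32 in native cells, and Gfra2, a receptor for the growth factor neurturin, at -6.39 and -1.33, 33.4-fold lower (10.3-fold with normexp).

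Some neighbouring genes shared a direction. In RefSeq gene order, 8 runs of at least 3 consecutive compared genes were each at least 1.5-fold higher, and 3 runs were each at least 1.5-fold lower. Over all 12347 compared genes, 5.97% were higher and 4.97% lower by that much. How many runs such shares would give in random order was not worked out. The higher runs included the class II genes H2-Ab1, H2-Aa, H2-Eb1 and H2-Eb2, the protease genes Mcpt8, Ctsg and Gzmb, and the calcium-binding S100a6, S100a8 and S100a9. The lower runs included Ear1, Ear10 and Ear2 and the natural killer receptor genes Klra4, Klra8 and Klra7, where paralogs may share reads of a probe. Genes at least 2-fold apart were found on every autosome.

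The Sf3b1+/- pair of arrays shares no array with the wild-type pair, though all 4 share a slide and each pair the same 2 settings. Across the 12176 genes that every array detected well above background, the 2 sets of differences gave a Pearson correlation of 0.65 and a Spearman correlation of 0.61 across genes, which are not independent, and 73.1% of genes had the same sign. In Sf3b1+/- cells 425 genes (3.49%) were at least 2-fold higher and 144 (1.18%) lower. At least 2-fold higher in both genotypes were 135 genes (1.11%), which is 73.0% of the 185 such genes in wild type and 31.8% of the 425 in Sf3b1+/-. At least 2-fold lower in both were 38 genes (0.312%), which is 31.7% of the 120 in wild type and 26.4% of the 144 in Sf3b1+/-. No gene was 2-fold apart in opposite directions. Of the 185 genes higher in wild type 174 were above 0 in Sf3b1+/-, and of the 120 lower 103 were below 0. The 10 highest in both were Tm4sf1, Upb1, Lgals3, Ccn1, Clca3a2, Cldn5, Lbhd2, Aif1, Jam2 and Csprs, with Upb1, an enzyme of pyrimidine breakdown, at -1.60 in wild-type transplanted and -4.64 in wild-type native cells and at -2.38 and -5.46 in the Sf3b1+/- pair. The 10 lowest in both were Vpreb3, Igll1, Gfra2, Sparc, Pou2af1, Rftn2, Itgb5, Rag1, Vpreb1 and Cpe. The 2 probes of Csprs disagreed, at 2.23 and 0.36 in wild type. Mtus2, among the 12 lowest in wild type, lay at -0.34 in Sf3b1+/- cells.

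**Figure D5:**
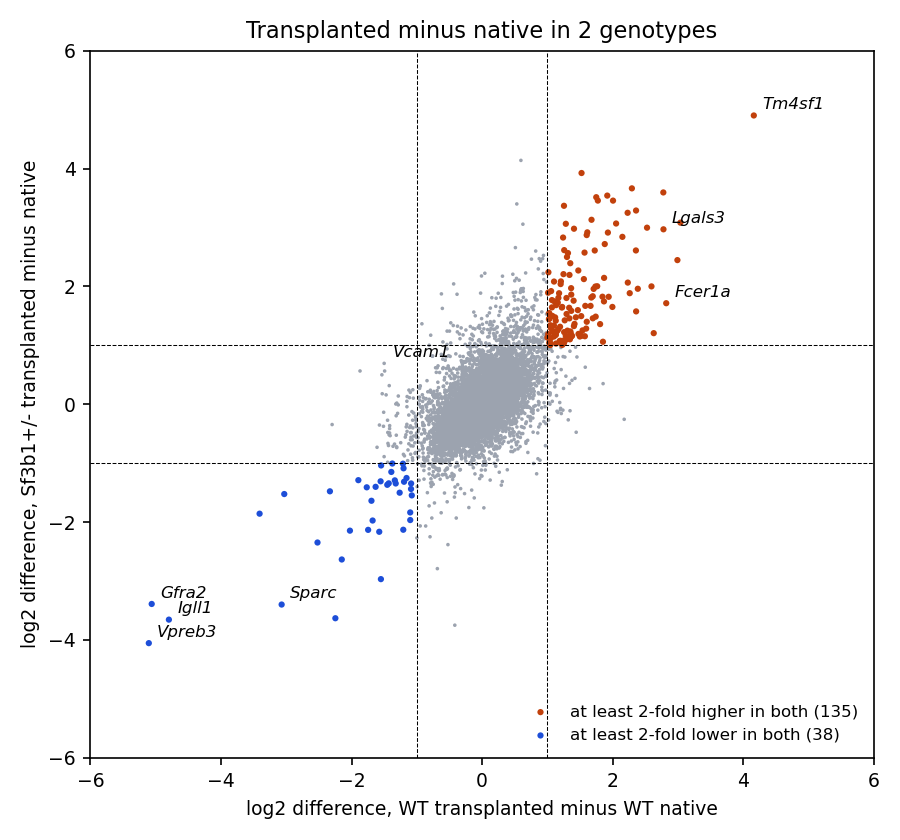
Log2 difference, transplanted minus native, in wild type (x axis) and Sf3b1+/- (y axis) for 12176 genes, 1 array per group, with dashed lines at 2-fold. Orange marks the 135 genes at least 2-fold higher in both and blue the 38 at least 2-fold lower in both, with no gene in the opposite corners.

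Beyond the compared genes, 573 of the 20887 named genes were well above background on the wild-type transplanted array and by no probe on the native array. Another 191 were so on the native array and by no probe on the transplanted one. The transplanted array detected more spots, 50.2% against 47.7%, and dimmer signals, down to -6.59 against -6.38. Its part in the 2 counts was not tested. With the main background correction, a bound of at least 2-fold could be set for 71 of the 573 and for 59 of the 191. After Prss34, the largest bounds for the transplanted array were those of the chemokine receptor Ccr6, at least 15.8-fold, Clec9a, Apol9b, at least 6.81-fold, and the natural killer receptor Klrb1b, at least 6.76-fold. Beside Ebf1, large bounds for the native array were those of Fxyd6, a regulator of the sodium pump, at least 7.95-fold, the matrix protein Sparcl1, at least 7.79-fold, and Col1a1. On all of the array, 28172 of 55681 probes had no gene symbol; 9302 of these were compared, with 260 higher and 103 lower by 2-fold or more.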

How the data were processed

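RNA from sorted LSK cells was measured on 4 single-colour Agilent arrays of design 028005, 1 per group; per the labels' protocols, spike-in transcripts were added to 20 ng of RNA before amplification and Cy3 labelling. Spot intensity values come from the deposited scanner files and were background-subtracted and detrended by Feature Extraction 10.7.1.1 per the file headers. A ratio in the deposited table of the series equals, from the values themselves, the processed signal over a constant of its array; which tool made it is not given in the sources. Replicate spots were averaged as log2 values computed from the deposited intensity, spots marked as outliers were dropped, and each array was shifted by the 75th percentile over the 24732 probes well above background on all 4 arrays. The 75th percentile was 1824 units on the wild-type transplanted and 1652 on the wild-type native array before scaling. Precision is limited by having 1 array per group.

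Symbols came from RefSeq names (27509 of 55681 probes matched), and the probe with the highest mean signal stood for its gene. Genes well above background on both wild-type arrays were compared by size, with no test. Named genes were the 12 with the largest differences in each direction that kept their sign under quantile, cyclic loess and normexp processing, the 10 per direction 2-fold apart in both genotypes, the 5 largest bounds per direction, the gate markers and, per list, the 4 largest differences with members that go against the median or define the cell type. Further list members were named after their values were seen. A few genes these rules name are not reported here. The members and the 52 lists were chosen with earlier results of these data known, and the promoter motifs and printed promoters after the values were seen. Alternatives were other scalings, normexp with an offset of 50 (on median spot intensity, since the mean was not in the files used), other filters and the median over probes. The calculation was tested on simulated data. R 4.3.3, limma 3.58.1, the data.table package, version 1.17.8, Python 3.11.15, pandas 2.3.3 and numpy 2.4.6 were used.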

Additional observations from a re-analysis of the deposited data

Results flagged for a closer look

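Over the 12176 genes well above background on all 4 arrays, 25 were at least 1.5-fold apart in opposite directions in the 2 genotypes. Of the 25, 6 were in the lists, and the share among list genes was not worked out. With 1 array per group these differences between genotypes were not tested. Transplanted minus native, Vcam1 had a log2 difference of -1.50 in wild type and 0.69 in Sf3b1+/- cells. Arc had -0.92 in wild type and 1.37 in Sf3b1+/-, and Plagl1 -0.62 and 1.87. Zfp287 had -0.60 in wild type and 0.77 in Sf3b1+/-. Il18r1 had 0.86 in wild type and -0.92 in Sf3b1+/-, and H2bc23 0.89 and -0.95. With normexp H2bc23 had 0.50 in wild type, under 1.5-fold. Vcam1 and Arc were dim in wild-type transplanted cells, at -5.95 and -5.26, where the dimmest detected signal was -6.59. The 2 compared probes of Il18r1 differed, at 0.86 and 0.23 in wild type, while the 4 probes of Plagl1 lay between -0.72 and -0.15.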

How the results depend on the processing

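The counts of genes at least 2-fold higher and lower in transplanted wild-type cells were 192 and 130. They stayed within 1.5 times of these under the 75th percentile over all probes, quantile, cyclic loess and median scaling, the deposited table, the filter on all 4 arrays and the median over probes. Spike-in scaling gave 904 higher and 35 lower, and 730 and 13 in both genotypes. Normexp gave 87 and 38, and 69 and 19 in both. The filter on at least 2 of 4 arrays gave 364 and 208, and 229 and 74 in both, and no filter gave 777 and 797, and 316 and 193 in both; these filters admit dim genes by construction. The direction split, 192 to 130, was 163 to 152 with the percentile over all probes and in the deposited table, 168 to 163 by quantile, 171 to 160 by cyclic loess and 166 to 151 by the median. Of list medians at least 0.2 from 0, that of the Hox genes was 0.27 and, with no filter, -0.21, and the others kept their sign under every alternative, with spike-in values taken relative to the median of all genes, but not their size. In 10 lists, 11 values moved by more than the spread between spots. With no filter, the median was 0.13 for macrophage, monocyte and dendritic cell genes (0.82 as reported), 0.47 for MHC class II genes (0.65), 0.32 for late neutrophil genes (0.52), -0.10 for erythroid genes (0.16), -0.23 for stromal genes (0.02), -0.21 for matrix genes and -0.13 for p53 targets. Normexp gave 0.27 for late neutrophil genes and 0.41 for the genes of old stem cells (0.60). The filter on at least 2 of 4 arrays gave -2.01 for B-cell genes (-1.20) and 0.51 for the Hox genes. Among the B-cell genes it admits members that only the native arrays detected, which are lower by that selection. Of 206 genes, none at least 1.5-fold apart changed sign. Genes named for the largest differences in each direction were picked for keeping their sign under quantile, cyclic loess and normexp processing. For those genes, these alternatives could not show a change of sign. Of the 206, 112 moved by more than the spread between spots under some alternative, 101 of them with normexp. With normexp, 38 of 163 came under 1.5-fold. No paired analysis was possible because each group has 1 array. Signal over background limits the dim genes.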

Other observations

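Cytokine receptors and integrins were read separately. Of 42 cytokine receptor genes compared, 5 were at least 1.5-fold higher and 3 lower in transplanted wild-type cells, with a median of 0.09; Il6st, the shared signalling chain of the interleukin 6 family, was higher by 0.79, and Tnfrsf1b lower by 0.66. Of 28 TGF-beta and BMP genes, 7 were at least 1.5-fold higher and 1 lower: the ligand Bmp4 was at -3.13 in transplanted and -4.84 in native cells, its target Id1 at 0.57 and -0.41, and Smad6, an inhibitor of the pathway, at -5.11 and -4.30. Among clock genes Nfil3, a regulator of innate lymphocytes, was higher by 1.20, with a median of 0.04 over 16 genes. Of 31 p53 target genes, 3 were at least 1.5-fold higher and 4 lower: Pmaip1, which promotes cell death, and Plk3 were higher by 1.16 and 1.21, and Gdf15 was lower by 1.14.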
